A study of Mus musculus with 12 samples.

Results

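Synaptotagmins are the vesicle and membrane proteins that couple calcium to exocytosis. The account below follows 10 of them (Syt1, Syt2, Syt4, Syt6, Syt7, Syt9, Syt10, Syt11, Syt16 and Syt17) in single nuclei of the mouse cortex. The members were the rows whose gene symbol matched these names, 10 of the 17 synaptotagmin genes and of the 55336 genes listed in the files. The list was chosen by earlier results of the same nuclei, in which the Het against WT log2 fold change of Syt6 in layer 6 corticothalamic (L6 CT) nuclei was among those above 0. That difference is therefore given below as a description with no test. Cortex was taken at postnatal day 21 from mice of the MYT1L S710fsX line, which carries a frameshift in Myt1l, a neuronal zinc finger transcription factor. Het mice carry the mutation on a single allele and WT mice on neither. There were 6 animals of each genotype, 3 males and 3 females, each animal a separate sample. The methods describe injection of newborn pups with AAV9 particles that carry the Calling Cards constructs hyPB and H2b-tdT-SRT, tdTomato is listed among the features, and which of these animals were injected is not said in the labels. By the methods the animals were drawn from several litters and were processed on shared plates.

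All synaptotagmins of the classical kind carry a membrane anchor at the amino end and a pair of C2 domains that bind calcium, phospholipids and SNARE proteins. Syt1, Syt2 and Syt9 are the fast calcium sensors of synchronous transmitter release, whereas Syt7 binds calcium more slowly and with higher affinity and is known for asynchronous release and facilitation. Syt6 and Syt10 belong to a subgroup that forms disulfide-linked dimers. Syt4 and Syt11 carry a substitution in the first C2 domain and bind calcium poorly. Syt16 and Syt17 lack the usual transmembrane anchor.

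In the GENCODE annotation of GRCm38, the build that UCSC calls mm10, each member is a protein-coding gene. The fast sensors are Syt1 (chr10:108497650-109010982, minus strand), Syt2 (chr1:134646677-134762593, plus) and Syt9 (chr7:107370728-107548656, plus). The slow sensor Syt7 spans chr19:10389090-10453180 on the plus strand. Of the disulfide-linked subgroup, Syt6 spans chr3:103575231-103645569 (plus) and Syt10 chr15:89782393-89841860 (minus). Syt11, of the pair that binds calcium poorly, spans chr3:88744700-88775164 (minus). The members without the usual anchor are Syt16 (chr12:73997661-74273267, plus) and Syt17 (chr7:118380717-118448222, minus). Syt2 overlaps Ppp1r12b on the other strand, and whether the counting used strand is not given in the sources used here. Gm43066 (chr3:103601943-103603202), a noncoding transcript, lies inside Syt6 on the same strand and overlaps 0 of its annotated exons. The files divide a UMI, the molecular tag of 1 transcript, between genes where a read fits several. The share of a member's nonzero entries that were not whole ran from 0.278% for Syt4 to 9.26% for Syt2 and 7.53% for Syt9.

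The sequence upstream of Syt6 is shown because the genotypes did not overlap for Syt6 in L6 CT-like nuclei and because MYT1L binds DNA. Below are the 250 bases before the first RefSeq start of Syt6 (GRCm38.p6, chr3:103574995-103575244, plus strand), 5′ to 3′. The core motif of the MYT1 family, AAGTT on either strand (AACTT on the other), would be in capitals.
Syt6: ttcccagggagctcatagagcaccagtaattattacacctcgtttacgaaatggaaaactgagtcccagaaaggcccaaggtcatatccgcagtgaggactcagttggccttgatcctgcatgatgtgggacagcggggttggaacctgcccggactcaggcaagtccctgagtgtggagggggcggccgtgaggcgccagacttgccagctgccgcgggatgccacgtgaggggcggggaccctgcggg
No letter is in capitals, because neither orientation of the motif was in this stretch. Windows of 300 bases around a start (250 before to 50 after) were taken for 7 of the 10 members, with 11 starts in all. AAGTT was in 3 of the 11 windows, those of a downstream start of Syt6, of a second start of Syt1 and of Syt10, and it was in 39.3% of all 32851 windows of the same length. The longer form AAAGTTT, every match of which also holds AAGTT, was in 0 of the 11 and in 4.74% of all. No window of Syt4, Syt7 or Syt17 was used.

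The files held 78743 barcodes, 4059 to 8798 per animal, and 0 barcodes were shared between animals. After the study's limits on UMIs, genes and mitochondrial reads and removal of predicted doublets, 33116 nuclei remained, 14344 WT and 18772 Het. Their median was 2978 to 3398 UMIs per nucleus over animals. Many barcodes, 33586, held more than the upper limit of 6000 UMIs, and with no upper limits 74784 nuclei would have remained. The number within the limits was 2116 of 6478 barcodes in Het male 1 and 4646 of 7301 in Het male 2. Nuclei were assigned to classes by marker genes that held no synaptotagmin, and a class is named with the ending "-like". There were 18 named classes, and 15787 nuclei, 12293 of them excitatory and 3099 inhibitory, kept no class name. The class most used below, L6 CT-like, held 4721 nuclei. Its leading genes by fold over other excitatory nuclei included its own markers Foxp2, Col5a1 and Hs3st4. Levels are CPM, a gene's UMIs per 1e6 UMIs, of the summed nuclei of 1 animal and class, averaged over the animals with at least 10 such nuclei. They compare 1 gene across classes and are not corrected for gene length, so genes are not ranked against each other. In a sum of nuclei from 1 class, fewer positive nuclei and less RNA per nucleus give the same level. Myt1l itself was at 1096, 1197 and 1312 CPM in L6 CT-like nuclei of WT (lowest, median and highest) and at 1361, 1414 and 1592 CPM in Het. The Het animals were all above the WT animals. These counts do not separate intact from mutated transcripts, so genotypes are taken as the labels give them, and the cause of the higher level was not tested.

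Each member had its own distribution over the classes. Syt1 and Syt16 were found in every neuronal class, Syt2 stood out in Pvalb-like nuclei, Syt6 was highest in striatal projection-like and L6 CT-like nuclei, Syt17 was high in DG granule-like and L2/3 IT-like nuclei, and Syt11 was highest in oligodendrocyte-like nuclei. The ratio of the highest class mean to the median class mean was 27.9 for Syt2, 18.5 for Syt6 and 12.2 for Syt17, against 1.66 for Syt1 and 2.48 for Syt11. These orders are descriptions over the same nuclei that were classified, with no test between classes.

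**Figure D1:**
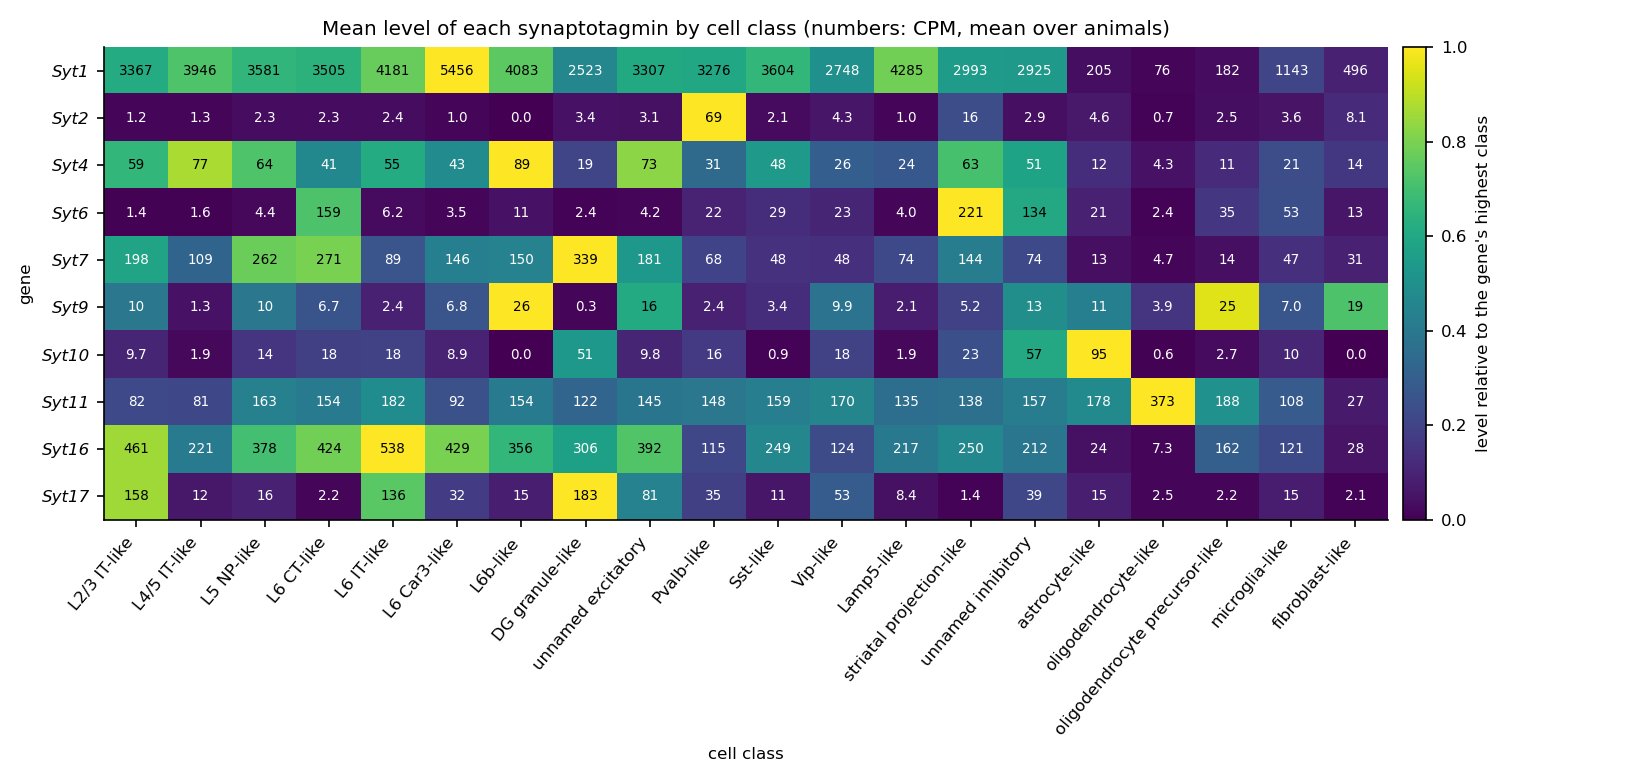
Mean level of each member (rows) in each cell class (columns). Numbers are mean CPM over animals and colours give the level relative to that gene's own highest class, so colours compare classes within a row. Syt2 stands out in Pvalb-like nuclei at 68.5 CPM, Syt6 in striatal projection-like and L6 CT-like nuclei at 221 and 159 CPM, and Syt11 in oligodendrocyte-like nuclei at 373 CPM.

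Syt1, the main calcium sensor of fast release in forebrain neurons, was detected in nearly every L6 CT-like nucleus. Its mean level was highest in L6 Car3-like nuclei, at 5456 ± 555 CPM (SD, 10 animals), followed by Lamp5-like nuclei at 4285 ± 295 CPM, and the ranges of these 2 classes over animals overlapped. L6 CT-like nuclei held 3505 ± 286 CPM. The lowest level was in oligodendrocyte-like nuclei, at 75.7 ± 32.6 CPM. To compare detection at equal depth, each nucleus was thinned to 1500 UMIs. A Syt1 UMI was then found in 98.4% of L6 CT-like nuclei (mean over animals, 99.8% unthinned). In oligodendrocyte-like nuclei, a cell type that should lack the gene, the share was 9.49% (15.5% unthinned). In microglia-like nuclei it was 48.0% (56.5% unthinned), at a level of 1143 ± 245 CPM over 7 animals.

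Between genotypes, Syt1 was compared in all 15 classes that had at least 3 animals of each genotype, and it was called in 0 of them by edgeR's quasi-likelihood test (adjusted p from 0.649 to 1.00; by DESeq2 0 as well). A call here means a Benjamini-Hochberg adjusted p under 0.05 over all genes tested in the class and an absolute log2 fold change over 0.2. In 4 classes the log2 fold change of Het against WT was above 0 and in 11 it was below 0, with a median of -0.11. The lowest, median and highest levels in L6 CT-like nuclei were 3255, 3473 and 4174 CPM in WT and 3107, 3445 and 3704 CPM in Het. The 2 ranges overlapped, and the log2 fold change was -0.09 ± 0.07 (SE), or -0.035 without WT male 3 and -0.056 without Het male 2. In L6 Car3-like nuclei, where Syt1 was highest, the levels were 5236, 5782 and 6393 CPM in 5 WT animals and 4590, 5175 and 5758 CPM in 5 Het animals. None of these Het animals was above the WT median, and the log2 fold change was -0.17 ± 0.10 (adjusted p = 0.726, edgeR). Among the genes most like Syt1 over classes were Pacsin1 (Pearson r = 0.98 over 18 classes on log2(CPM + 1), among 14390 genes) and Slc6a17 (0.97).

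Of the 15 comparisons of Syt1, the smallest unadjusted p was in oligodendrocyte precursor-like nuclei. There it ran from 126 to 510 CPM in WT (median 186 CPM) and from 80.8 to 125 CPM in Het (median 106 CPM), without overlap. The log2 fold change was -0.87 ± 0.25 and did not pass the test (adjusted p = 0.655, edgeR; unadjusted p = 0.0010). The highest WT values, 510 and 413 CPM, came from the WT animals with the fewest nuclei of this class, 17 and 13. Without animals under 20 nuclei the log2 fold change was -0.54 (adjusted p = 0.918, edgeR), and without doublet removal it was -0.31 (adjusted p = 1.00, edgeR). The summed inhibitory neuron markers in the same nuclei ran from 69.0 to 225 CPM in WT and from 20.9 to 88.1 CPM in Het. These ranges overlapped (medians 103 and 60.8 CPM). The summed excitatory markers overlapped as well, at 451 to 741 CPM in WT and 519 to 919 CPM in Het (medians 668 and 656 CPM). In oligodendrocyte-like nuclei Syt1 ran from 44.8 to 144 CPM in WT and from 42.6 to 88.4 CPM in Het (log2 fold change -0.49 ± 0.24, adjusted p = 1.00, edgeR), with medians of 13.7 and 5.59 CPM for the inhibitory and 51.5 and 44.5 CPM for the excitatory markers. The part of neuronal RNA in these differences was not tested.

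Syt2, the fast sensor of hindbrain and of parvalbumin interneuron synapses, was at 68.5 ± 15.0 CPM in Pvalb-like nuclei (SD, 12 animals). Its next class was striatal projection-like, at 16.1 ± 7.11 CPM, and the ranges over animals did not overlap. All other classes were at 8.15 CPM or below. A Syt2 UMI was found in 7.70% of thinned Pvalb-like nuclei (16.3% unthinned) and in 0.125% of oligodendrocyte-like nuclei. In Pvalb-like nuclei it ran from 42.4 to 82.1 CPM in WT (median 58.7 CPM) and from 66.2 to 98.4 CPM in Het (median 76.7 CPM). The 2 groups overlapped, and all 6 Het animals were above the WT median. The log2 fold change was 0.32 ± 0.15 and did not pass the test (adjusted p = 1.00, edgeR; unadjusted p = 0.038). Over classes it was most like Tac1, which encodes substance P (r = 0.73), Chchd3 (0.71) and Pdlim3 (0.71). Pvalb-like nuclei gave 0 calls among all 6509 genes tested. Their own markers summed to 1573 to 1975 CPM in WT and 1779 to 2041 CPM in Het.

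Syt9, the third fast sensor, was sparse. It passed the filter on low counts in 0 classes, so it was not compared between genotypes. Its mean level was 24.8 ± 12.9 CPM in oligodendrocyte precursor-like nuclei, from 39.5 UMIs over 12 animals, and 15.9 ± 3.44 CPM in excitatory nuclei without a class name. In L6b-like nuclei it was 26.0 ± 28.2 CPM over 5 animals, from 7 UMIs in all. The ranges of these groups overlapped. L6 CT-like nuclei held 6.73 ± 2.71 CPM. Its nearest genes over classes were Cav1 (r = 0.79), Gm42479 (0.77) and Gm42481 (0.77).

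Syt7, the slow high-affinity sensor, was highest in DG granule-like nuclei, at 339 ± 89.4 CPM (SD, 12 animals), followed by L6 CT-like nuclei at 271 ± 34.7 CPM and L5 NP-like nuclei at 262 ± 31.4 CPM, with overlapping ranges. L2/3 IT-like nuclei followed at 198 ± 20.2 CPM, and Sst-like and Vip-like nuclei were each near 48 CPM. Syt7 was compared between genotypes in 10 classes and called in 0 (adjusted p from 0.568 to 1.00, edgeR), with 5 log2 fold changes above 0 and 5 below. In DG granule-like nuclei it ran from 212 to 399 CPM in WT (median 293 CPM) and from 251 to 535 CPM in Het (median 391 CPM). The groups overlapped, 5 of 6 Het animals were above the WT median, and the log2 fold change was 0.36 ± 0.17 (adjusted p = 0.568, edgeR). These sums rested on 16 to 40 nuclei per WT animal and 28 to 89 per Het animal. The medians in L6 CT-like nuclei were 260 CPM in WT and 268 CPM in Het. Among the genes most like Syt7 were Ryr2, a calcium release channel (r = 0.93), and Camk2b, a calcium-dependent kinase (0.92).

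Syt6, known for its part in acrosomal exocytosis in sperm, marked a pair of neuronal classes here. It was at 221 ± 49.9 CPM in striatal projection-like nuclei and at 159 ± 33.8 CPM in L6 CT-like nuclei (SD, 12 animals each), and their ranges overlapped. The first class carries markers of the spiny projection neurons of the striatum (Drd2 and Rgs9 were among its leading genes), a region next to the dissected cortex. Inhibitory nuclei without a class name held 134 ± 69.6 CPM. The other named cortical excitatory classes were at 10.7 CPM or below. Among them were L5 NP-like nuclei at 4.44 CPM, L4/5 IT-like at 1.59 CPM and L2/3 IT-like at 1.41 CPM. Microglia-like nuclei were at 52.9 ± 42.6 CPM over 7 animals and oligodendrocyte precursor-like nuclei at 35.3 ± 39.4 CPM. The means of Sst-like, Vip-like, Pvalb-like and astrocyte-like nuclei lay between 20.6 and 28.9 CPM. Syt6 was not used to define any class and was the second leading gene of L6 CT-like nuclei, at 19.2-fold the level of other excitatory nuclei. A constant was added to both levels before this fold was taken. After thinning, 19.7% of L6 CT-like nuclei had a Syt6 UMI (33.9% unthinned), against 0.299% of L2/3 IT-like nuclei (0.447% unthinned).

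In L6 CT-like nuclei Syt6 was higher in every Het animal than in every WT animal. The lowest, median and highest levels were 115, 126 and 155 CPM in WT and 173, 190 and 209 CPM in Het. The groups did not overlap, and the fitted fold of Het over WT was 1.43 (log2 fold change 0.52). Within males the ranges were 115 to 132 CPM in WT and 173 to 188 CPM in Het, and within females they were 124 to 155 CPM and 192 to 209 CPM. Of all 8680 genes tested in this class, 0.484% were called, 25 higher and 17 lower in Het. Of the 6 members other than Syt6 that were tested there, 0 were called.

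**Figure D2:**
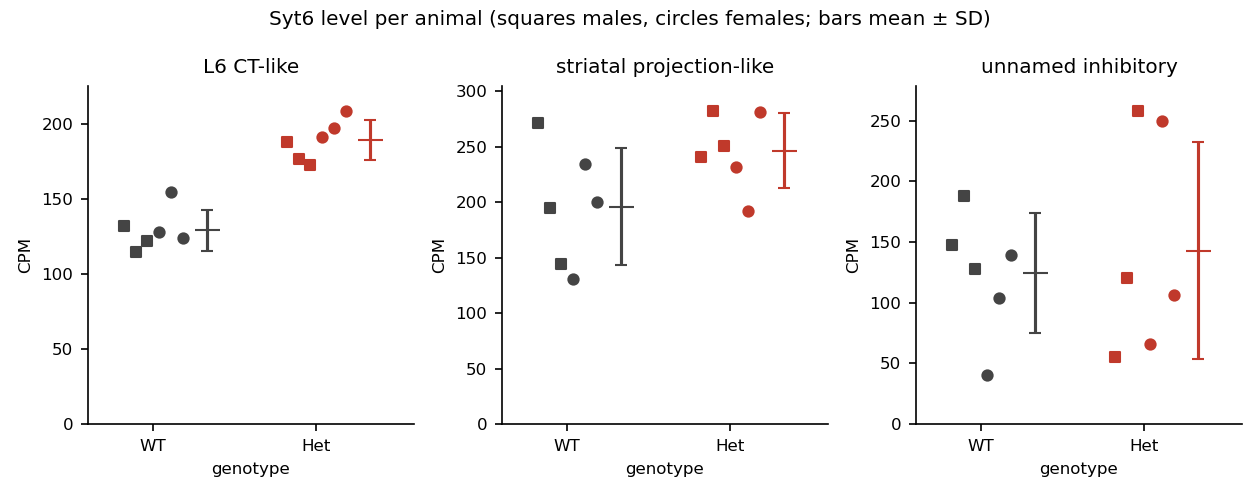
Syt6 level (CPM, y axis from 0) of each animal in L6 CT-like, striatal projection-like and unnamed inhibitory nuclei, by genotype (x axis). Squares are males, circles females, and bars the mean ± SD of 6 animals. In L6 CT-like nuclei all Het animals, at 173 to 209 CPM, sit above all WT animals, at 115 to 155 CPM, while in the other 2 groups of nuclei the genotypes overlap.

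The share of nuclei with a Syt6 UMI followed the level. After thinning, the share of L6 CT-like nuclei with a Syt6 UMI was 16.7 ± 1.6% in WT (15.0 to 19.7%) and 22.8 ± 1.83% in Het (19.8 to 25.1%), and unthinned it was 29.0% and 38.7%. The thinned UMIs per positive nucleus were 1.16 ± 0.10 in WT and 1.26 ± 0.05 in Het. The share in L2/3 IT-like nuclei, the class with the lowest mean Syt6 level, was 0.355 ± 0.438% in WT and 0.243 ± 0.277% in Het. The number of L6 CT-like nuclei was 1983 in WT and 2738 in Het. Their own summed markers ran from 6417 to 6953 CPM in WT and from 6276 to 7320 CPM in Het, and the summed striatal projection markers had medians of 1203 and 1472 CPM. Their part in the Syt6 difference was not tested.

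**Figure D3:**
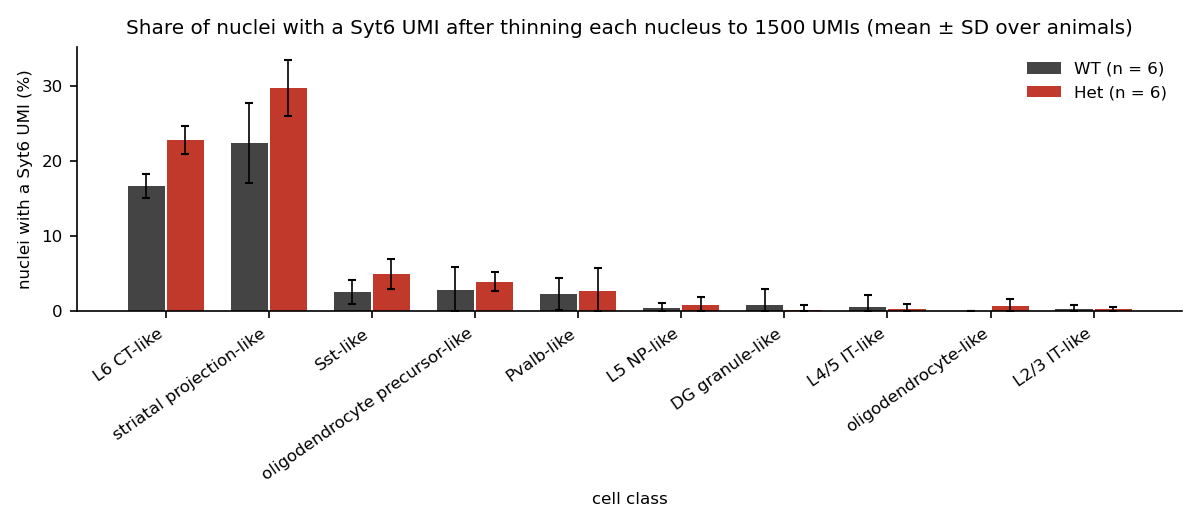
Share of nuclei with a Syt6 UMI (y axis, percent) in 10 classes (x axis) after thinning each nucleus to 1500 UMIs. Bars are means and error bars SD over 6 WT and 6 Het animals, with lower ends stopped at 0. L6 CT-like nuclei stand at 16.7% in WT and 22.8% in Het, striatal projection-like nuclei at 22.4% and 29.7%, and L2/3 IT-like nuclei at 0.355% and 0.243%.

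In striatal projection-like nuclei the level ran from 131 to 272 CPM in WT (median 197 CPM) and from 192 to 282 CPM in Het (median 246 CPM). The groups overlapped, 5 of 6 Het animals were above the WT median, and the log2 fold change was 0.34 ± 0.15 (adjusted p = 0.996, edgeR; unadjusted p = 0.029). This class gave 0 calls among 3928 genes. It held 374 WT and 887 Het nuclei. In Pvalb-like nuclei the log2 fold change was 0.50 ± 0.73 (adjusted p = 1.00, edgeR), with 1 Het animal at 81.1 CPM and medians of 18.3 CPM in WT and 18.1 CPM in Het. Unnamed inhibitory nuclei had medians of 134 CPM in WT and 114 CPM in Het.

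The genes whose class means were most like those of Syt6 were Gm43066, the noncoding transcript within Syt6 (Pearson r = 0.76 over the same classes), Nfatc2 (0.71) and Mme (0.69). These r values are descriptions over class means that share libraries. Gm43066 was at 4.16 to 11.1 CPM in WT (median 6.21 CPM) and at 9.84 to 15.7 CPM in Het (median 10.96 CPM) in L6 CT-like nuclei, from 45 and 113 UMIs, and the groups overlapped. Reads of an intronic transcript and of Syt6 pre-mRNA on the same strand cannot be told apart in nuclei.

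Syt10, the partner of Syt6 in its subgroup and known for secretion of IGF-1 in the olfactory bulb, was at 94.6 ± 112 CPM in astrocyte-like nuclei over 7 animals, from 56.5 UMIs and with a range from 0 to 315 CPM. It was at 57.2 ± 33.8 CPM in unnamed inhibitory nuclei and at 50.5 ± 25.9 CPM in DG granule-like nuclei, and all of these ranges overlapped. It passed the filter on low counts only in L6 CT-like nuclei, where it was at 17.2 ± 4.08 CPM in WT and 18.7 ± 5.39 CPM in Het. The log2 fold change was 0.00 ± 0.20 (adjusted p = 1.00, edgeR), and its sign turned under other settings. Its nearest genes were Pkp2 (r = 0.78), 1810020O05Rik (0.77) and Gm16835 (0.76). In DG granule-like nuclei it ran from 15.9 to 90.0 CPM in WT and from 20.3 to 100.3 CPM in Het. Syt6 was at 2.44 CPM in the same nuclei.

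Syt4, a vesicle protein of neurons that binds calcium poorly and is induced by activity, was highest in some excitatory classes and lower in others. Its mean was 88.6 ± 52.3 CPM in L6b-like nuclei over 5 animals, 77.2 ± 24.3 CPM in L4/5 IT-like nuclei and 64.2 ± 15.7 CPM in L5 NP-like nuclei, with overlapping ranges. DG granule-like nuclei, also excitatory, held 18.6 ± 7.96 CPM, below Sst-like nuclei at 47.7 ± 15.6 CPM. It was at 4.33 ± 4.38 CPM in oligodendrocyte-like nuclei. Among 7 classes compared, 6 log2 fold changes were above 0 and 1 below, with a median of 0.38, and 0 were called (adjusted p from 0.338 to 1.00, edgeR). In L2/3 IT-like nuclei it ran from 16.4 to 64.8 CPM in WT (median 51.7 CPM) and from 40.1 to 111 CPM in Het (median 66.3 CPM). The groups overlapped, 5 of 6 Het animals were above the WT median, and the log2 fold change was 0.50 ± 0.19 (adjusted p = 0.338, edgeR; unadjusted p = 0.011). In L6 CT-like nuclei, where the genotypes did not overlap for Syt6, Syt4 was at 41.7 ± 10.7 CPM in WT and 40.8 ± 9.03 CPM in Het. There the females ran from 31.8 to 40.2 CPM in WT and from 45.3 to 51.6 CPM in Het, and the males from 30.6 to 57.7 CPM in WT and from 30.7 to 36.6 CPM in Het. The log2 effect of Syt4 in males minus that in females was -0.84 ± 0.27 and did not pass the test (unadjusted p = 0.0045, adjusted p = 1.00, edgeR). In L4/5 IT-like nuclei its levels were 56.5, 59.7 and 114 CPM in WT and 55.0, 86.0 and 125 CPM in Het (log2 fold change 0.34 ± 0.24, adjusted p = 0.771, edgeR). That value was 0.57 without WT male 1, 0.20 without Het female 1 and 0.22 without WT male 3, and in L2/3 IT-like nuclei it was 0.32 without Het female 2. Nearest to it over classes were Ppip5k1 (r = 0.92), Zfp385b (0.90) and Gm45837 (0.89).

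Syt11, a close relative of Syt4 that is known for limiting membrane uptake and is found in neurons and glia, had its highest level in glia-like nuclei. It was highest in oligodendrocyte-like nuclei, at 373 ± 72.9 CPM (SD, 12 animals), followed by oligodendrocyte precursor-like nuclei at 188 ± 55.5 CPM. The 2 ranges overlapped, from 266 to 522 CPM and from 112 to 282 CPM. All neuronal classes lay between 80.6 and 182 CPM. A Syt11 UMI was in 41.8% of thinned oligodendrocyte-like nuclei (57.3% unthinned), 24.9% of oligodendrocyte precursor-like and 20.1% of L6 CT-like nuclei. The genes most like it over classes were Txndc16 (r = 0.87), Atg4d (0.85) and Gm11149 (0.83).

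With both sexes together, the log2 fold change of Syt11 was above 0 in 12 of the 13 classes where it was compared, and none of these differences passed the test. The log2 fold changes ran from -0.03 in L4/5 IT-like to 0.64 in microglia-like nuclei, with a median of 0.25, and the adjusted p from 0.424 to 1.00 (edgeR). Over the 15 classes, the median log2 fold change of all genes tested stayed between -0.02 and 0.02. In Lamp5-like nuclei Syt11 ran from 60.2 to 147 CPM in WT (median 113 CPM) and from 114 to 222 CPM in Het (median 154 CPM). The groups overlapped, all 6 Het animals were above the WT median, and the log2 fold change was 0.49 ± 0.19 (unadjusted p = 0.012, adjusted p = 0.599, edgeR). The ranges in L6 CT-like nuclei were 110 to 188 CPM in WT and 124 to 193 CPM in Het, with a log2 fold change of 0.24 ± 0.10 (adjusted p = 0.424, edgeR). In oligodendrocyte-like nuclei, where it was highest, the medians were 349 CPM in WT and 401 CPM in Het and the log2 fold change was 0.20 ± 0.14 (adjusted p = 1.00, edgeR). Without Het female 3 it was 0.093. Among males alone the Het mean was below the WT mean in some classes and above it in others. In oligodendrocyte-like nuclei of males the means were 381 CPM in WT and 350 CPM in Het. In L6 CT-like nuclei of males they were 147 CPM in WT and 151 CPM in Het. The classes share the same 12 animals, so these values are not independent of each other.

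The Het effect on Syt11 was larger in females than in males in 13 of 13 classes, and in 0 of them did this difference pass the test (adjusted p from 0.740 to 1.00, edgeR interaction term; unadjusted p under 0.05 in 6). In microglia-like nuclei that comparison rests on 1 female of each genotype and 2 WT males, and in Vip-like nuclei on 2 WT males. The classes share the same animals, 3 or fewer of each sex and genotype, so the 13 values are not independent of each other. The share of all genes with an unadjusted p under 0.05 for this edgeR term is not given here. In Pvalb-like nuclei the females ran from 107 to 137 CPM in WT and from 171 to 192 CPM in Het, without overlap. The males there ran from 134 to 152 CPM in WT and from 137 to 148 CPM in Het, the Het range lying inside the WT range. The log2 effect in males minus that in females was -0.57 ± 0.20 (unadjusted p = 0.0060, adjusted p = 0.740, edgeR). In striatal projection-like nuclei the medians were 99.3 CPM in WT and 173 CPM in Het for females and 172 CPM in WT and 130 CPM in Het for males, with 3 animals in each group. The log2 effect in males minus that in females was -1.05 ± 0.32 there (unadjusted p = 0.0029, adjusted p = 0.996, edgeR).

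**Figure D4:**
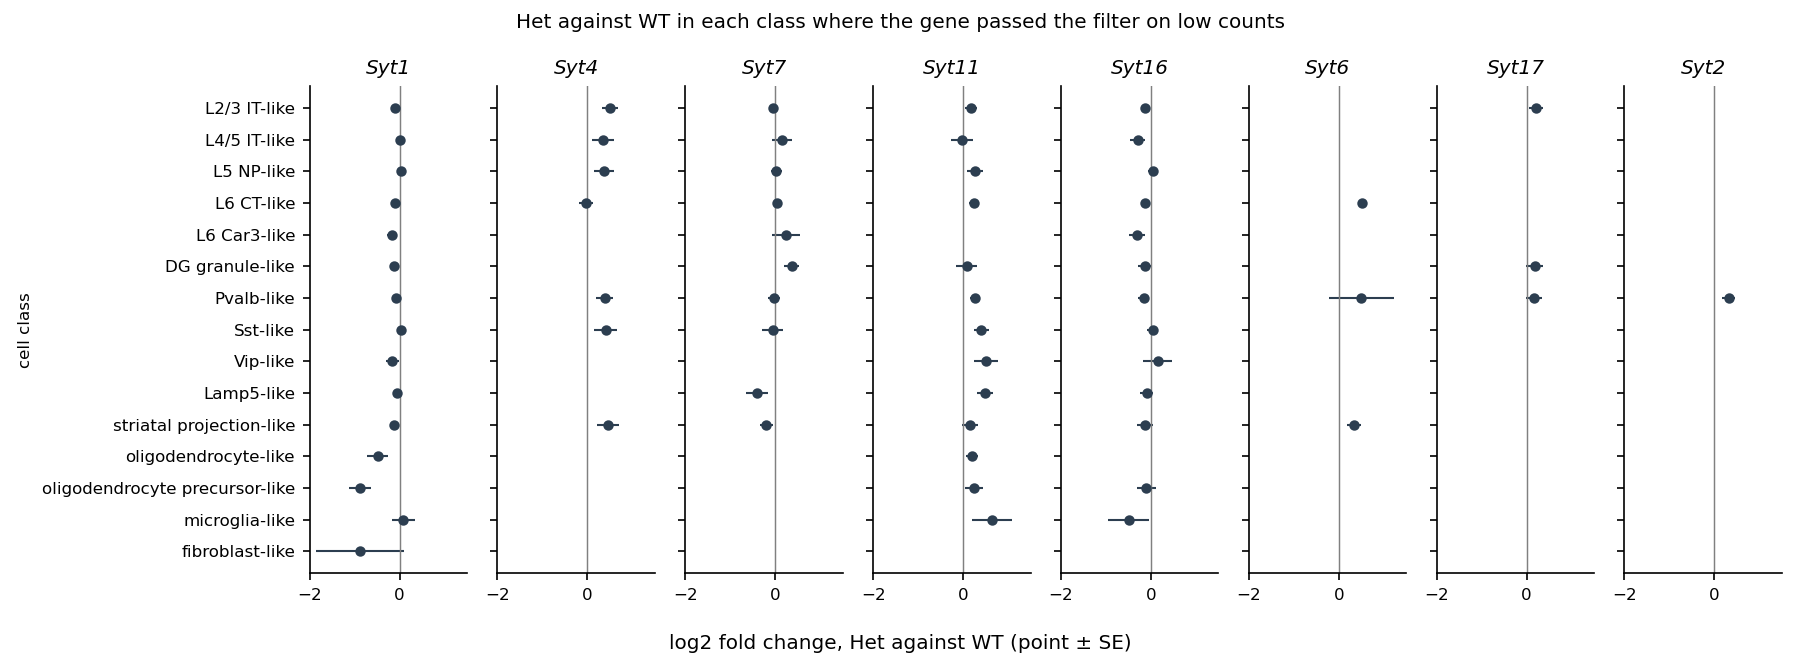
Log2 fold change of Het against WT (x axis, point ± SE from the edgeR fit) of 8 members, 1 panel each, in every class (y axis) where the member passed the filter on low counts. Points to the right of 0 are higher in Het. With both sexes together, the points of Syt11 lie right of 0 in 12 of 13 classes and those of Syt4 in 6 of 7. Those of Syt1 and Syt16 lie mostly left of 0. Syt6 in L6 CT-like nuclei is drawn as a description, and 0 of the other points drawn met the call. Syt10, which passed the filter in L6 CT-like nuclei alone, is not drawn.

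Syt16, an atypical member that does not depend on calcium, had its highest means in excitatory classes. It was at 538 ± 157 CPM in L6 IT-like nuclei over 5 animals, 461 ± 44.5 CPM in L2/3 IT-like and 424 ± 37.6 CPM in L6 CT-like nuclei, with overlapping ranges, against 249 CPM in Sst-like and 115 CPM in Pvalb-like nuclei. L4/5 IT-like nuclei, also excitatory, were at 221 CPM, below the Sst-like mean, and microglia-like nuclei were at 121 CPM. In oligodendrocyte-like nuclei it was at 7.32 ± 6.33 CPM, but in oligodendrocyte precursor-like nuclei it was at 162 CPM. The genes most like it were Pdzd4 (r = 0.96), Frrs1l (0.95) and Trim46 (0.94). Of 13 classes compared, 10 log2 fold changes were below 0 and 3 above, and 0 were called (adjusted p from 0.559 to 1.00, edgeR). Its range in L6 CT-like nuclei was from 406 to 481 CPM in WT (median 438 CPM) and from 366 to 478 CPM in Het (median 402 CPM). The log2 fold change was -0.14 ± 0.08, and 1 of 6 Het animals was above the WT median. In L2/3 IT-like nuclei it was at 456 to 496 CPM in WT and 376 to 528 CPM in Het, so the Het animals spread on both sides of WT (log2 fold change -0.14 ± 0.09, adjusted p = 0.704, edgeR).

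Syt17, also called B/K protein, separated excitatory classes from each other. It was at 183 ± 34.2 CPM in DG granule-like, 158 ± 38.6 CPM in L2/3 IT-like and 136 ± 63.0 CPM in L6 IT-like nuclei, and at 11.9 CPM in L4/5 IT-like and 2.21 CPM in L6 CT-like nuclei. Syt6 had the other order, at 1.41 CPM in L2/3 IT-like and 159 CPM in L6 CT-like nuclei. After thinning, 19.4% of L2/3 IT-like and 0.20% of L6 CT-like nuclei had a Syt17 UMI, and 0.268% of oligodendrocyte-like nuclei. The genes most like it were Itga8 (r = 0.78), Ppm1e (0.76) and Slc30a3 (0.75), the vesicular zinc transporter. In DG granule-like nuclei it ran from 131 to 199 CPM in WT (median 166 CPM) and from 166 to 231 CPM in Het (median 206 CPM). The groups overlapped, and the log2 fold change was 0.18 ± 0.19 (adjusted p = 0.862, edgeR), or 0.27 without WT male 3. It was tested in 3 classes and called in 0.

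**Figure D5:**
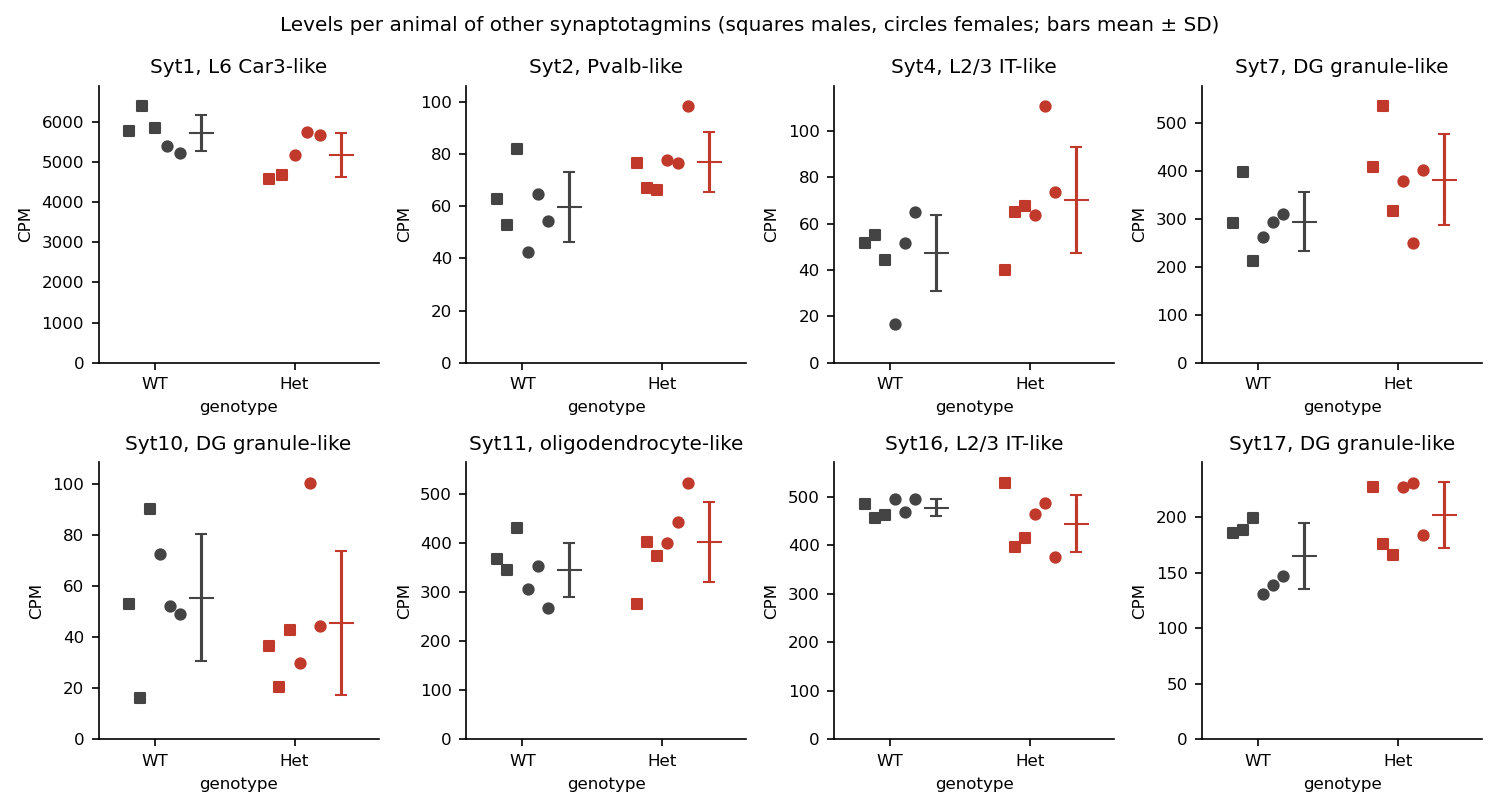
Level (CPM, y axis from 0) of each animal for 8 pairs of a member and a class, by genotype (x axis). Squares are males, circles females, and bars the mean ± SD. The WT and Het points overlap in each of the 8 panels, as for Syt2 in Pvalb-like nuclei, at 42.4 to 82.1 CPM in WT and 66.2 to 98.4 CPM in Het.

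Over all classes, 66 of 150 pairs of a member and a class passed the filter on low counts, and 9 of the 10 members passed it somewhere. Leaving aside Syt6 in L6 CT-like nuclei, which the earlier results had shown, 0 of the other 65 pairs were called by edgeR and 0 by DESeq2. Of these, 9 (13.8%) had an unadjusted p under 0.05 in edgeR, beside 3573 (6.58%) of the 54331 tests over all genes and classes. Pairs of 1 member share the same animals, and the members were chosen with earlier results of these data known. Both shares are therefore descriptions, and whether the members differ from other genes was not tested. A member passes the filter more readily where it is high, and the other pairs were not tested. The share of all genes called was 0.484% in L6 CT-like, 0.196% in DG granule-like, 0.0556% in L5 NP-like, 0.0346% in L4/5 IT-like and 0.0272% in Sst-like nuclei. It was 0% in each of the other 10 classes, where the highest number of genes at an unadjusted p under 0.05 was 593 of 6445 in L2/3 IT-like nuclei. A test of whether the Het effect differed between males and females was made for 64 pairs of a member and a class. Syt6 in L6 CT-like nuclei was left aside. The smallest adjusted p was 0.740 (edgeR), and 9 pairs, 6 of them Syt11, had an unadjusted p under 0.05. The share of all genes at that level in this test is not given here, and the pairs of Syt11 share the same animals.

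The proteins with which synaptotagmins work were also compared. Of the other 7 synaptotagmin genes, 26 pairs of a gene and a class were tested, and 0 were called higher and 0 lower (smallest adjusted p = 0.455, edgeR). The same held for 12 SNARE proteins with their assembly and recycling factors (89 pairs, smallest adjusted p = 0.292), for complexins (10 pairs, 0.485), for other tandem C2 proteins, of which Rph3a (rabphilin), Esyt2, Sytl2 and Sytl5 passed the filter (34 pairs, 0.115), and for SV2 proteins (22 pairs, 0.704). Calls were rare among all genes too, at 50 of the 54331 tests over all genes and classes. Counts of 0 in lists this small are therefore no result about these genes. In L6 CT-like nuclei the median log2 fold change was 0.09 for the 11 SNARE genes tested and 0.17 for the 5 other synaptotagmins. It was -0.01 for all genes tested there. The lowest value of the SNARE list was -0.34, for Vamp2, a vesicle SNARE.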

How the data were processed

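Nuclei of 12 P21 cortices (6 WT, 6 Het) were profiled by combinatorial barcoding. The authors used the ScaleRna workflow on mm10 to count UMIs, with ambient barcodes removed by CellFinder. The deposited values are expected counts (UMIs divided between genes where reads fit several), and per the labels Seurat 4.3.0 and DESeq2 1.38.3 were used downstream. The study states more nuclei than the barcodes counted here. The annotation release is not given in the sources used here.

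Here the study's limits were applied (800 to 6000 UMIs, 300 to 3000 genes, a mitochondrial share up to 1%, log genes over log UMIs of at least 0.9), and the 5% of barcodes per animal with the highest Scrublet doublet score were removed. Marker UMIs of each nucleus were pooled with its 20 nearest neighbours (50 components, 3000 variable genes without synaptotagmins), scaled to the 50 highest nuclei, and a class needed a mean marker score of at least 0.2 and 1.2 times the next. These cutoffs were set after seeing class sizes, before genotypes were compared. Sums per animal and class (at least 10 nuclei) were rounded and tested with edgeR 4.0.16 (TMM, filterByExpr, robust quasi-likelihood, genotype only), tested on simulated data. The SE given with a log2 fold change is its absolute value divided by the square root of the test's F statistic. Classes needed 3 animals per genotype. Astrocyte-like, L6 IT-like and L6b-like nuclei had fewer. DESeq2 1.42.0, RLE factors, no filter, sex, replicate block, stricter gate (0.4), no upper limits, no doublet removal and leaving out each animal were alternatives. The 10 members and the lists were chosen with earlier results of these data known. The rule for named genes took every member, in L6 CT-like nuclei and in its highest class, the 3 genes most like it, and any called gene of the other lists. Some genes that this rule names are not reported here.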

Additional observations from a re-analysis of the deposited data

Results flagged for a closer look

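In 3 of 44 groups of animals examined, 1 animal stood far from the other 5 by Dixon's test at the 95% level, where chance alone gives about 1 group in 20. Syt2 in Pvalb-like nuclei was at 98.4 CPM in Het female 3, and the other Het animals were between 66.2 and 77.7 CPM. Syt4 in L4/5 IT-like nuclei was at 114 CPM in WT male 1, and the other WT animals were between 56.5 and 62.4 CPM. Syt10 in DG granule-like nuclei was at 100.3 CPM in Het female 2, and the other Het animals were between 20.3 and 44.4 CPM.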

How the results depend on the processing

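Syt6 aside, 0 members were called as reported. Under the replicate block, Syt1 in oligodendrocyte precursor-like nuclei was called at -1.11 (adjusted p = 0.024, edgeR), so that with Syt6, which the choice of members fixed, the members called there numbered 2. The labels do not say that same-numbered animals are paired. Their deviations in L6 CT-like nuclei, where this was examined, correlated between -0.09 and 0.14. The call under the block is therefore not taken as a result. The share of all genes called under the block in precursor-like nuclei is not given here. Genes called higher in L6 CT-like nuclei, 25 as reported, numbered 56 by DESeq2, 90 with no filter and 104 with no upper limits. Genes called lower, 17, numbered 36 by DESeq2, 40 with no filter, 45 with no upper limits, 11 with RLE size factors and 34 with the stricter gate. With single animals left out these ran from 8 to 51 and from 5 to 40. The higher calls were lowest without Het female 1 (8), WT female 3 (9), WT male 3 (11), Het female 2 (12) and Het male 3 (14) and highest without WT female 1 (51). The lower calls were 5 to 8 without those 5 animals or Het male 2, and 40 and 36 without WT female 1 and WT male 2. The cause was not tested. Small differences in L6 CT-like nuclei turned sign. Syt4 was at 0.078 with no upper limits and from -0.13 to 0.066 with animals left out, Syt7 at -0.016 with the stricter gate and from -0.047 to 0.095, and Syt10 at -0.012 with no doublet removal, -0.34 with no upper limits and from -0.076 to 0.11. Among classes present in enough animals, 10 of 10 members kept their highest class with any animal left out, and 8 did with the stricter gate and with no upper limits. Syt2 in Pvalb-like nuclei was at 105 CPM with the stricter gate. The minimum of 20 nuclei was chosen after seeing the data.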
